A study of Mus musculus with 2 samples.

Results

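The genes described here are *Fkbp5*, *Tsc22d3*, *Per1*, *Ddit4*, *Klf9*, *Sgk1* and *Txnip*, 7 known targets of the glucocorticoid receptor among the 19960 genes listed for the series. They were found by symbol, except *Klf9*, which is listed by its Ensembl identifier (ENSMUSG00000033863) alone. *Fkbp5* was chosen by its measured level, which was higher in the *Postn*-DTR library, so its values between the libraries are a description and support nothing further. Each gene was followed through 25 lymphoid, myeloid and stromal cell types, which were set in single cells by the detection of marker genes and are called "X-like".

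The cells came from the mouse omentum, a sheet of visceral fat whose lymphoid clusters are called milky spots. The 2 libraries are those of wild-type (WT) mice and of *Postn*-DTR animals, made in C57BL/6 zygotes and heterozygous for a diphtheria toxin receptor inserted into the first coding exon of *Postn*, so that diphtheria toxin (DT) kills cells that use this gene. Both groups received DT and were taken 5 days later, and each library pooled the cells of 3 mice, whose age the sources used here do not give. With 1 library per group there was no test between groups, and all cell types of a group share their library and are not replicates of it.

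Glucocorticoids such as corticosterone bind a receptor that waits in the cytoplasm with heat shock proteins. Once bound, the receptor enters the nucleus, attaches to DNA at palindromic response elements and activates nearby genes, several of which restrain inflammation, cell growth or the receptor itself. The hormone is released by the adrenal gland with a daily rhythm and under stress, and leukocytes are among its best-known targets. Each of the 7 genes also answers to other inputs: *Per1* to the circadian clock, *Ddit4* to hypoxia and stress of the endoplasmic reticulum, *Sgk1* to growth factors and cell volume, and *Txnip* to glucose.

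The promoters of 3 of the genes that hold letters searched for are shown, and those of *Per1* and *Tsc22d3*, which also hold some, are not. In the RefSeq windows of the GRCm38.p6 assembly, from 250 bases before to 50 bases after a transcript start, all 7 genes were matched, with 15 windows in all. The full palindrome, the arm AGAACA with 3 bases of any kind and then its reverse complement TGTTCT, was found in 3 of 32851 windows (0.00913%), and 1 of the 3 belongs to *Sgk1*. The looser core, GNACA with 3 bases of any kind and then TGTNC, overlaps the palindrome and was in 156 windows (0.475%), among them that of *Sgk1* and that of *Txnip*. The E-box CACGTG, bound by clock and other bHLH factors, was in 2349 windows (7.15%), with 1 each of *Fkbp5*, *Per1* and *Sgk1*. Searches covered both strands, and the single arm AGAACA, held by 19% of all windows, was found for *Sgk1* and *Tsc22d3*. None of these motifs was in the single windows of *Ddit4* and *Klf9*. Below, 250 bases before the start are given from 5′ to 3′ on the gene's strand, with the E-box in capitals for *Fkbp5*, the E-box and then the palindrome for *Sgk1*, and the core match for *Txnip*. The palindrome of *Sgk1* lies at positions -189 to -175 and the core match of *Txnip* at -172 to -160, counted back from the start. A match is a description of letters and not a bound site.
Fkbp5, chr17:28486150-28486399, minus strand: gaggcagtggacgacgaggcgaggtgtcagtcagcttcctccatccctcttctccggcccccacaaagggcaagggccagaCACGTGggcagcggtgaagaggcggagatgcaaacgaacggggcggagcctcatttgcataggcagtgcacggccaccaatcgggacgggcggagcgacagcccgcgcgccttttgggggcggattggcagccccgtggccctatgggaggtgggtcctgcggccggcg
Sgk1, chr10:21993640-21993889, plus strand: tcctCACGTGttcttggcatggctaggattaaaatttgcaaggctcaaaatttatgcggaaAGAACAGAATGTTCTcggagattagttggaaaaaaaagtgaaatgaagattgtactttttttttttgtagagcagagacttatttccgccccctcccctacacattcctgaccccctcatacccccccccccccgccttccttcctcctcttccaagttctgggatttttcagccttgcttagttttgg
Txnip, chr3:96557707-96557956, plus strand: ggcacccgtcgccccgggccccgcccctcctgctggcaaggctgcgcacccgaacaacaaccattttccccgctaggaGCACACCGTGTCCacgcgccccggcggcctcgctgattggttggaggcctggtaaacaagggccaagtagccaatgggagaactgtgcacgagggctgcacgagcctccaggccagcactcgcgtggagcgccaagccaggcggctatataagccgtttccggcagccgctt

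The WT library held 8654 cells and 80152253 UMIs (unique molecular identifiers, each standing for 1 captured transcript), and the *Postn*-DTR library 5727 cells and 81011184 UMIs. Ratios were given for 22 cell types with at least 20 cells in each library, from 20 *Postn*-DTR cells of the DC-like and cDC1-like types to 1974 plasma-like cells. Naive CD4 T-like, pDC-like and mast-like cells had fewer. *Postn* itself, the targeted gene, had 58 UMIs in 58 WT stromal-like cells and 9 in 37 *Postn*-DTR ones, a level of 0.517 against 0.0828 UMIs per 10000. The libraries shared 65 barcode sequences. Free RNA of plasma cells differed between them: *Jchain*, an antibody chain gene, had a level of 0.888 in WT and 1.88 in *Postn*-DTR B2 B-like cells, and its part in the values below was not tested. Levels are means, over the cells of a type, of UMIs per 10000, ratios are log2 of the *Postn*-DTR over the WT level, and a ratio was given where the gene had at least 100 UMIs over both libraries. Brackets hold exact 95% intervals of the summed UMIs. They cover counting error only, and a mean over cells, in which shallow cells weigh as much as deep ones, can lie outside them.

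*Fkbp5* encodes FKBP51, a co-chaperone that binds the receptor complex and lowers its affinity for the hormone, which makes the gene part of a negative feedback. It lies on chromosome 17 (28399094 to 28517527, minus strand, GRCm38). The ratio was above 0 in 15 of the 15 cell types that had one, with a median of 2.89, and reached 1 (a 2-fold difference) in 14. Of all genes with at least 15 ratios, 0.842% were higher in *Postn*-DTR in every type, and by median *Fkbp5* ranked 7 of the 6516 genes with at least 5 ratios. Counting the types without a ratio, 25 of 25 had the higher level in *Postn*-DTR. The minimum of UMIs for a ratio was summed over both libraries, so types with few WT UMIs could pass it through their *Postn*-DTR UMIs. Among those that did were peritoneal macrophage-like, mature neutrophil-like and C1q macrophage-like cells. Other B-like cells, with 43 WT and 233 *Postn*-DTR UMIs, were also among them, and this rule favours high ratios. Because of it, and because the higher level is why the gene was chosen, the counts, median and rank only describe the extent of the difference.

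In B2 B-like cells, the follicular type, WT had an *Fkbp5* level of 0.120 (106 UMIs in 1550 cells) and *Postn*-DTR one of 0.971 (130 UMIs in 294 cells), a log2 ratio of 3.02 [2.52 to 3.28]. B1 B-like cells went from 0.113 to 1.12 (3.32 [2.57 to 3.42]), and other B-like cells from 0.0834 to 0.960 (3.52 [2.84 to 3.82]). Within each library the intervals of the 3 B types overlap. Genes that were 2-fold or more higher made up 1.29%, 1.92% and 1.57% of those with a ratio in these types.

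T cell types started from a higher level. *Fkbp5* was at 0.331 in WT CD4 T-like cells (99 UMIs) and at 0.951 in those of *Postn*-DTR (26 UMIs), a ratio of 1.52 [0.32 to 1.64]. CD8 T-like cells had 0.213 and 0.726 (1.77 [1.34 to 2.43]), and NKT-like cells 0.273 and 0.815 (1.58 [0.87 to 1.96]). Among T cells the gamma-delta T-like type had the highest ratio, 2.38 [1.76 to 2.93], from 0.297 to 1.55. In all of these the *Postn*-DTR level was above the WT level by more than the counting error. Other T-like cells had 0.355 and 0.995 (1.48 [1.01 to 2.08]). Against this, 1.26% of the genes with a ratio in CD4 T-like cells were 2-fold higher, 1.66% for CD8 T-like, 1.18% for NKT-like, 2.21% for gamma-delta T-like and 2.18% for other T-like cells.

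Among the types with a ratio, macrophage-like and monocyte-like cells had the highest, but the interval of monocyte-like cells overlaps those of the B types. C1q macrophage-like cells are those with complement C1q genes that did not pass the peritoneal markers. They had 9 *Fkbp5* UMIs in 157 WT cells and 137 in 184 *Postn*-DTR cells, a level of 0.0854 against 2.72 and a ratio of 4.99 [3.79 to 5.92]. Monocyte-like cells had 0.105 and 1.26 (3.59 [2.73 to 4.16]). In these cells 6 of 7 neutrophil markers were also higher in *Postn*-DTR, with summed levels (UMIs per 10000) of 3.48 for WT and 31.96 for *Postn*-DTR, against 2368 and 1920 in mature neutrophil-like cells. *S100a8* was detected in 11.3% of the WT and 68.9% of the *Postn*-DTR monocyte-like cells, and *Cxcr2*, *Retnlg*, *Ly6g* and *Mmp9* had no UMI in WT and 1 to 5 UMIs each in *Postn*-DTR. The part of these markers in the monocyte values of any of the 7 genes was not tested. Peritoneal macrophage-like cells also had C1q genes and were set apart by markers among *Gata6*, *Prg4*, *Selp* and *Alox15*. They gave the highest ratio, 6.15 [2.61 to 10.43], but it rests on 1 WT UMI in 23 cells against 125 in 113. The share of genes 2-fold higher was 3.99% in C1q macrophage-like, 2.12% in monocyte-like and 7.44% in peritoneal macrophage-like cells.

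Along the neutrophil lineage the ratio by cell type was lowest in the least mature cells. Granulocyte-monocyte precursor-like cells, which express *Elane*, *Mpo* and *Prtn3*, had an *Fkbp5* level of 0.354 in WT and 0.580 in *Postn*-DTR, a ratio of 0.71 [0.26 to 0.91], under the 2-fold line. Immature neutrophil-like cells had 0.185 and 0.496 (1.42 [0.91 to 1.90]), above it. Mature neutrophil-like cells had 2 UMIs in 48 WT cells and 169 in 462 *Postn*-DTR cells, a ratio of 2.89 [1.65 to 6.58]. The intervals of the mature and the immature type overlap, and the order of these 3 types is a description. It did not hold in every cluster, as given below. Genes 2-fold higher were 1.3%, 2.9% and 8.78% of those with a ratio in the 3 types.

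The order of cell types by *Fkbp5* level was not the same in the libraries. In WT the highest levels were those of Treg-like (0.386), other T-like (0.355), precursor-like (0.354) and CD4 T-like cells (0.331), whose intervals overlap. In *Postn*-DTR, C1q macrophage-like (2.72) and cDC1-like cells (2.06) came first among types with at least 20 cells, followed by peritoneal macrophage-like (1.63) and gamma-delta T-like cells (1.55), and neighbours in this order overlap as well. Plasma-like cells were the lowest in both, at 0.0126 [0.00884 to 0.0209] for WT and 0.106 [0.0978 to 0.116] for *Postn*-DTR, where no other interval reached theirs. Their ratio of 3.07 [2.33 to 3.60] was nevertheless like that of B cells, against 3.64% of genes 2-fold higher. The *Postn*-DTR library held 1974 plasma-like cells against 520 in WT. Summed UMIs per 10000 over the whole library were 0.160 in WT and 0.357 in *Postn*-DTR. They differed less than the mean levels within most types, but a sum gives deep cells more weight than a mean over cells does.

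**Figure D1:**
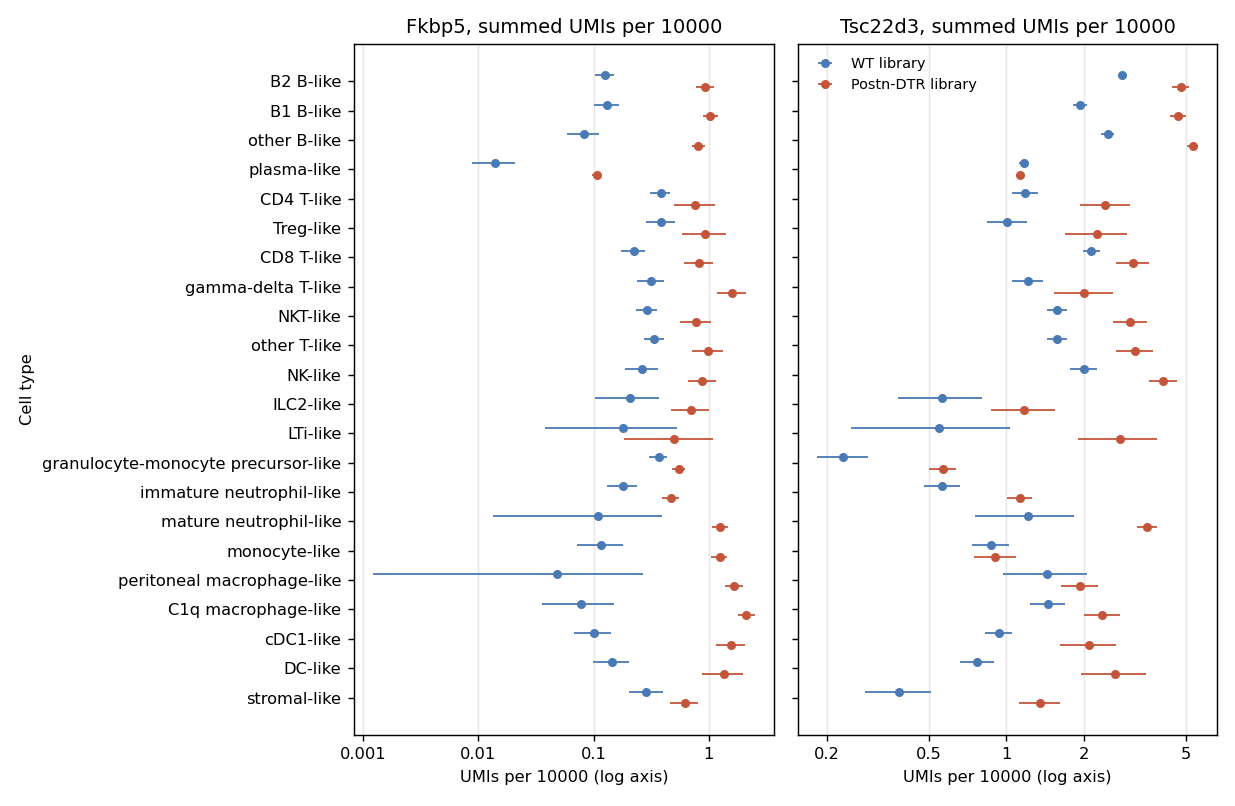
UMIs per 10000 (log axis) of *Fkbp5* (left) and *Tsc22d3* (right) from the summed UMIs of each cell type, with exact Poisson 95% intervals, WT in blue and *Postn*-DTR in red. For *Fkbp5* the red point lies right of the blue one in every type shown, with the lowest pair in plasma-like cells, while for *Tsc22d3* the pair is apart in B2 B-like cells and nearly coincides in plasma-like and monocyte-like cells.

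Cell types without a ratio, for want of UMIs, had the same order of libraries. In NK-like cells the *Fkbp5* level was 0.253 in WT and 0.835 in *Postn*-DTR, and in Treg-like cells 0.386 and 0.805. ILC2-like cells had 0.167 and 0.693, and DC-like cells 0.113 and 1.41. The pDC-like cells, only 15 in *Postn*-DTR, had 0.185 and 3.06. In stromal-like cells the level was 0.262 and 1.20, but these cells were not free of leukocyte RNA: *Ptprc*, the pan-leukocyte gene CD45, was detected in 58.6% of the WT and 54.1% of the *Postn*-DTR ones, and *Jchain* had 2216 and 12850 UMIs in them. The part of this RNA in any stromal value was not tested.

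Detection in single cells followed the levels. With each cell thinned to 1000 UMIs, a *Fkbp5* UMI was found in 0.648% of the WT B2 B-like cells (10 of 1544, exact Clopper-Pearson interval 0.311 to 1.19%) and 9.25% of the *Postn*-DTR ones (27 of 292, 6.18 to 13.2%). Unthinned, the shares were 5.94% and 33.3%, at median depths of 4705 and 3786 UMIs. In C1q macrophage-like cells the thinned share was 1.29% in WT and 15.2% in *Postn*-DTR. Plasma-like cells had 0 of 520 in WT, where 3 cells would make 0.577%, and 0.760% in *Postn*-DTR (interval 0.426 to 1.25%). This is the type with the lowest detection, so a share like that of B2 B-like *Postn*-DTR cells was not found in every type of that library. The thinned share was higher in *Postn*-DTR in 21 of 22 types, with intervals that do not overlap in 9. CD8 T-like cells were the exception, with 2.72% and 1.25%, yet at 2000 UMIs per cell they had 4.13% and 16.2%, so no order is read from the smaller number.

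**Figure D2:**
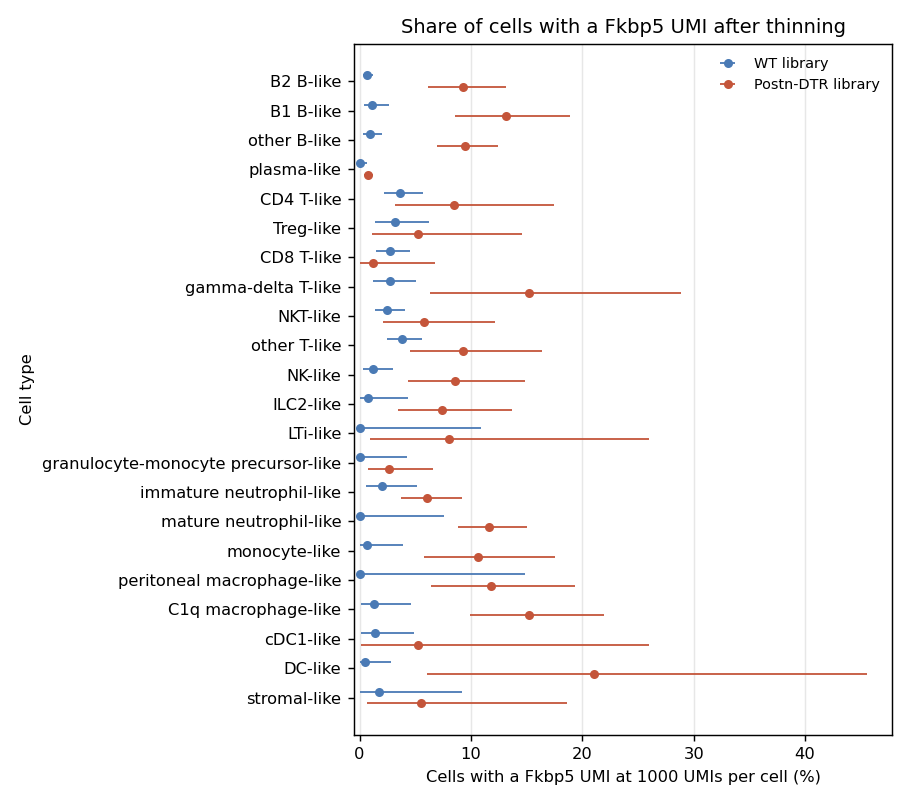
Share of cells with an *Fkbp5* UMI (percent) after each cell was thinned to 1000 UMIs, with exact Clopper-Pearson 95% intervals, WT in blue and *Postn*-DTR in red. B2 B-like cells stand at 0.648% and 9.25%, and plasma-like cells at 0 and 0.760%.

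The same cells were also grouped by cluster. In 18 of 22 types the same cluster, made without the 7 genes, held the largest number of cells of the type in both libraries, whereas B2 B-like, CD8 T-like, other T-like and plasma-like cells had different leading clusters. Taking clusters 1 by 1, the *Postn*-DTR level of *Fkbp5* exceeded the WT level in 19 of 19, with a median ratio of 2.07. These clusters passed the same minimum of UMIs summed over both libraries, and *Fkbp5* was chosen for its higher level. The count is therefore a description and no independent support, and the same count over all genes was not made. In cluster 17, which led the *Postn*-DTR B2 B-like cells, the level went from 0.108 to 1.03. In cluster 25, which led the *Postn*-DTR plasma-like cells, the 55 WT cells held no *Fkbp5* UMI and the *Postn*-DTR level was 0.0932. In cluster 30, which led the precursor-like cells, the levels were 0.393 and 0.411, the smallest gap. Cluster 22, where precursor-like cells were also the largest named type, went from 0.226 to 0.951 (ratio 2.07). Cluster 37, where immature neutrophil-like cells were the largest named type, went from 0.433 to 0.503 (0.22). The order of the neutrophil types by ratio therefore did not hold in every cluster.

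*Tsc22d3* encodes GILZ, a leucine zipper protein that binds and restrains NF-κB and AP-1 and is among the classical markers of glucocorticoid action in lymphocytes (chromosome X, 140539528 to 140600659, minus strand). Its ratio was above 0 in 20 of 20 cell types, with a median of 1.04, and reached 2-fold in 12. Of the genes with at least 20 ratios, 1.71% were higher in *Postn*-DTR in every type. In 17 types the counting interval lay above 0. The exceptions were plasma-like (0.0045 [-0.13 to 0.02]), monocyte-like (0.10 [-0.31 to 0.42]) and peritoneal macrophage-like cells (0.29 [-0.15 to 1.04]). The plasma value became -0.05 with summed UMIs and -0.08 when receptor, mitochondrial and ribosomal genes were left out of the totals, and thinning to 1000 UMIs put all 3 below 0 (-0.28, -0.10 and -0.26).

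In B2 B-like cells the *Tsc22d3* level was 3.12 for WT (2375 UMIs) against 4.90 for *Postn*-DTR (661 UMIs), a ratio of 0.65 [0.63 to 0.88]. B1 B-like cells had 2.25 and 5.34 (1.25 [1.13 to 1.41]) and other B-like cells 2.93 and 6.18 (1.07 [0.99 to 1.21]). By mean level B2 B-like cells had the highest value of the B types in WT and the lowest in *Postn*-DTR, but by summed UMIs the lowest in *Postn*-DTR were B1 B-like cells, 4.65 [4.33 to 4.99] UMIs per 10000 against 4.76 [4.40 to 5.13], and these intervals overlap. CD4 T-like cells had 1.34 and 3.32 (1.31 [0.67 to 1.39]), Treg-like cells 1.30 and 2.71 (1.06 [0.67 to 1.63], with 2.01% of genes 2-fold higher) and NK-like cells 2.02 and 4.10 (1.02 [0.77 to 1.27]), with 0.895% of genes 2-fold higher in NK-like cells. CD8 T-like cells had a smaller ratio, 0.51 [0.30 to 0.77], from 2.34 to 3.33.

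Among myeloid types, *Tsc22d3* went from 1.37 in WT to 3.84 in *Postn*-DTR mature neutrophil-like cells (1.49 [0.93 to 2.23]) and from 0.222 to 0.555 in precursor-like cells (1.32 [0.91 to 1.67]). DC-like cells had 0.759 and 2.82 (1.90 [1.29 to 2.24]), with 20 *Postn*-DTR cells and 3.6% of genes 2-fold higher. The highest ratio was that of stromal-like cells, 2.26 [1.32 to 2.33], from 0.431 to 2.06, where 5.33% of genes were 2-fold higher and the leukocyte RNA given above was present. *Mki67*, a cycling gene, stood at 6.72 UMIs per 10000 in these WT cells and 2.24 in the *Postn*-DTR ones. The cDC1-like cells had 0.912 and 2.03 (1.15 [0.75 to 1.55], with 4.98%). C1q macrophage-like cells, where the *Fkbp5* ratio was 4.99, had a *Tsc22d3* ratio of 0.89 [0.38 to 1.03].

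**Figure D3:**
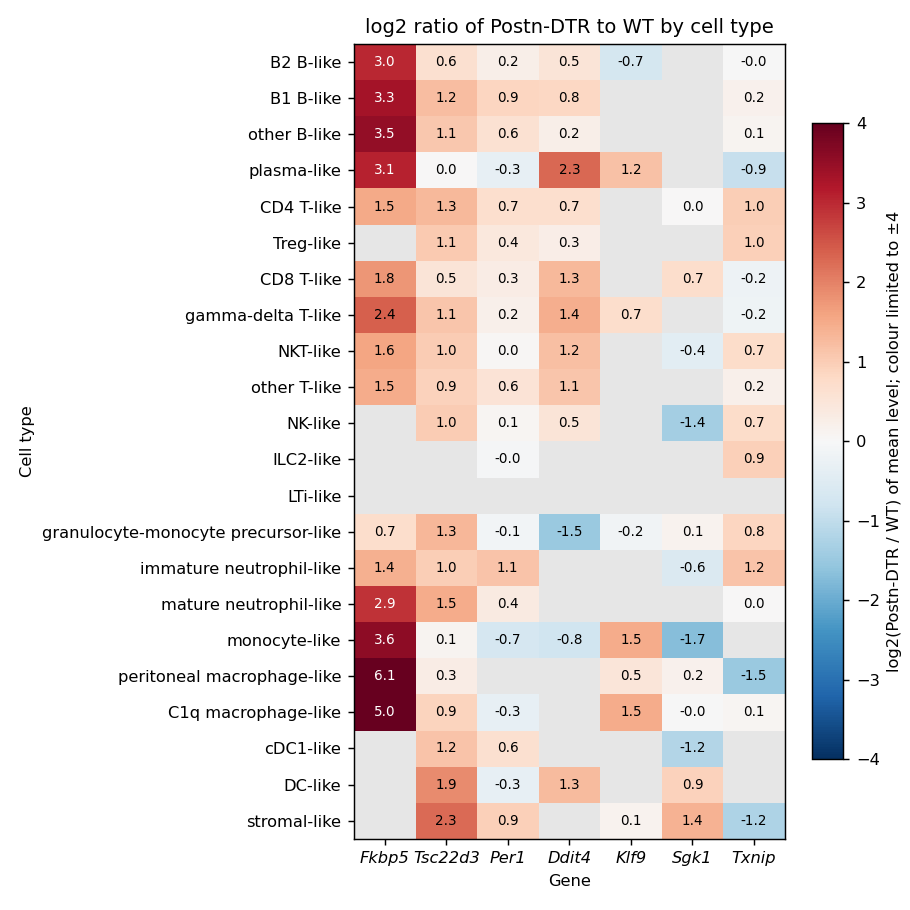
log2 ratio of the *Postn*-DTR to the WT mean level for the 7 genes (columns) in 22 cell types (rows), red for higher and blue for lower in *Postn*-DTR, grey where the gene had under 100 UMIs. The *Fkbp5* column is red in each of the 15 types with a ratio (0.71 to 6.15) and *Tsc22d3* runs from about 0 to 2.26, whereas the *Sgk1* and *Txnip* columns hold both colours.

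The other 5 genes did not share one direction. *Ddit4* encodes REDD1, an inhibitor of the growth kinase complex mTORC1 (chromosome 10, 59949669 to 59951834, minus strand). It was higher in *Postn*-DTR in 12 of 14 types, 2-fold or more in 6, with a median ratio of 0.76. Plasma-like cells held 126 WT and 1613 *Postn*-DTR UMIs, a level of 0.0646 against 0.317 and a ratio of 2.30 [1.78 to 2.32]. CD8 T-like cells had 0.399 and 0.986 (1.30 [1.09 to 1.93]), and NKT-like cells 0.427 and 0.990 (1.21 [0.59 to 1.52]).

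Several *Ddit4* values rested on few cells. Of the 92 UMIs in *Postn*-DTR gamma-delta T-like cells 39 came from 1 cell, and of the 98 in B1 B-like cells 34 did. Without the cell richest in *Ddit4* in each library, the ratio was 0.27 in place of 0.84 in B1 B-like, 0.25 in place of 1.26 in DC-like and -0.09 in place of 0.27 in Treg-like cells. In the other direction, precursor-like cells had a *Ddit4* level of 0.364 in WT and 0.131 in *Postn*-DTR (-1.47 [-1.74 to -0.82]), where 1.36% of genes were 2-fold or more lower. Monocyte-like cells had 0.420 and 0.244 (-0.78 [-1.88 to -0.50]).

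*Klf9* encodes a Krüppel-like transcription factor that responds to glucocorticoid and thyroid hormone (chromosome 19, 23141226 to 23168134, plus strand). It had 8 ratios, 6 of them above 0, with a median of 0.59. The 2-fold differences were those of C1q macrophage-like cells, from 1.10 (86 UMIs) to 3.06 (143 UMIs) with a ratio of 1.47 [1.17 to 1.97], monocyte-like cells, from 0.267 to 0.750 (1.49 [1.15 to 2.28]), and plasma-like cells, from 0.0102 to 0.0231 (1.18 [0.24 to 1.77]). Precursor-like cells had 0.220 and 0.198 (-0.15 [-0.71 to 0.21]), and B2 B-like cells 0.142 and 0.0874 on 14 *Postn*-DTR UMIs (-0.70 [-1.33 to 0.40]). In WT stromal-like cells 1 cell held 44 of the 243 UMIs, and the ratio of 0.14 became -0.54 with summed UMIs. The gene was too sparse for a ratio in 14 types, and over all 22 its level was higher in *Postn*-DTR in 20.

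*Per1*, a core repressor of the circadian clock that also carries a response element for the receptor (chromosome 11, 69095217 to 69109960, plus strand), was higher in 14 of 20 types with a median ratio of 0.26. Its counting interval lay above 0 in 5 types. The highest ratio was that of immature neutrophil-like cells, from 0.454 to 1.01 (1.15 [0.39 to 1.11]). Stromal-like cells came next at 0.95, with a summed interval that covers 0 (-0.93 to 0.24), and then B1 B-like cells, from 0.390 to 0.706 (0.86 [0.47 to 1.17]). CD4 T-like cells had 0.842 and 1.34 (0.67 [0.10 to 1.11]). Monocyte-like cells had 1.42 and 0.885 (-0.68 [-1.13 to -0.43]) and plasma-like cells 0.182 and 0.145 (-0.33 [-0.49 to -0.10]). In B2 B-like, NKT-like and NK-like cells the intervals covered 0.

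*Sgk1* encodes a serine/threonine kinase that promotes sodium transport and cell survival (chromosome 10, 21882184 to 21999903, plus strand), and its promoter holds the full palindrome given above. It was higher in 6 of 12 types and lower in the other 6, with a median ratio of -0.01. Monocyte-like cells had 321 UMIs in 142 WT cells and 64 in 122 *Postn*-DTR cells, a level of 2.14 against 0.656 (-1.70 [-2.30 to -1.50]), where 5.48% of genes were 2-fold or more lower and the neutrophil markers given above were higher. NK-like cells had 1.51 and 0.586 (-1.36 [-2.15 to -1.03]), against 0.835% of genes, and cDC1-like cells 2.55 and 1.13 (-1.18 [-1.81 to -0.80]), against 8.96%. In the cDC1-like type 14 of the 36 *Postn*-DTR UMIs came from 1 cell. CD8 T-like cells had 0.354 and 0.583 (0.72 [0.15 to 1.30]), and C1q macrophage-like cells 1.56 and 1.53 (-0.03, with a summed interval of -0.81 to -0.02).

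*Txnip* encodes a thioredoxin-binding protein that lowers glucose uptake (chromosome 3, 96557957 to 96561883, plus strand). It was higher in 12 of 18 types with a median ratio of 0.14. Among lymphocytes, CD4 T-like cells had 0.778 and 1.55 (0.998 [0.31 to 1.33]), NK-like cells 1.08 and 1.81 (0.75 [0.33 to 1.10]) and ILC2-like cells 0.961 and 1.85 (0.95 [0.47 to 1.53]). B2 B-like cells had 1.20 in both libraries. Immature neutrophil-like cells had 0.174 and 0.386 (1.15 [0.43 to 1.52]). Peritoneal macrophage-like cells went the other way, from 2.10 to 0.757 (-1.47 [-1.88 to -0.72], with 5.6% of genes 2-fold or more lower), as did plasma-like cells, from 0.329 to 0.175 (-0.91 [-1.15 to -0.83]), and stromal-like cells, from 1.70 to 0.723 (-1.24 [-2.07 to -1.11], with 19.3%).

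**Figure D4:**
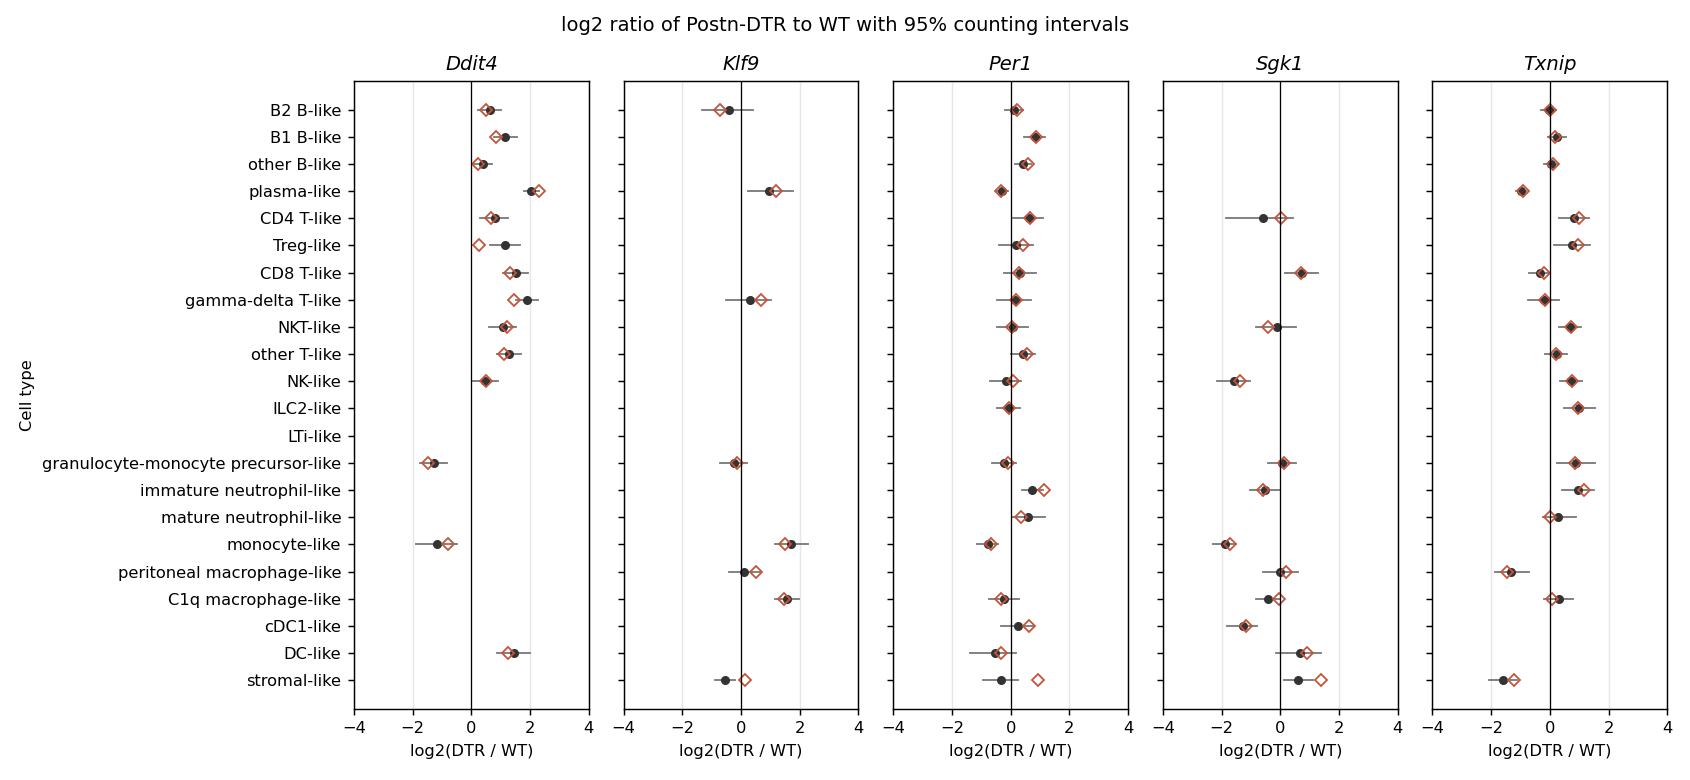
log2 ratio of *Postn*-DTR to WT for *Ddit4*, *Klf9*, *Per1*, *Sgk1* and *Txnip* by cell type, as summed UMIs (black point) with the exact conditional 95% counting interval (grey line) and as mean level (red diamond), where the gene had at least 100 UMIs. *Ddit4* lies right of 0 in 12 of 14 types and *Sgk1* in 6 of 12, with monocyte-like cells at -1.70 for *Sgk1*.

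The members can also be read by cell type. In CD4 T-like cells 5 of the 6 members with a ratio were above 0 both by mean level and by summed UMIs, whereas *Sgk1*, on 8 *Postn*-DTR UMIs, was at 0.012 by mean level and -0.59 [-1.84 to 0.45] by summed UMIs. In B1 B-like, other B-like and other T-like cells all 5 were above 0. In monocyte-like cells 3 of 6 were above and 3 below, with *Fkbp5* and *Klf9* 2-fold higher and *Sgk1* 2-fold lower. In precursor-like cells 4 of 7 were above 0, *Tsc22d3* alone was 2-fold higher and *Ddit4* 2-fold lower. These are counts of genes that share a library, and each includes *Fkbp5*, which was chosen for its higher level. The share of all genes above 0 in each type was not counted. The median ratio of all genes was 0.018 in B1 B-like, -0.048 in other B-like and 0.019 in other T-like cells. It was -0.032 in CD4 T-like, -0.066 in monocyte-like and -0.014 in precursor-like cells. The median ratio of all genes was within 0.1 of 0 in 18 types and stood at -0.35 in stromal-like, -0.25 in DC-like, -0.16 in cDC1-like and 0.20 in immature neutrophil-like cells. Relative to the shift in immature neutrophil-like cells, the ratios there of *Tsc22d3* (0.996), *Per1* and *Txnip* (1.15 each) were under 2-fold.

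A list of 25 further genes known to be induced by glucocorticoids was read in the same way. Of the 18 with at least 5 ratios, 15 had a median ratio above 0, against 46.3% of all 6516 genes, and 4 reached 2-fold, against 0.829%. These were *Il1r2*, a decoy receptor for interleukin-1 (median 1.67 over 5 types), *Mt1*, a metallothionein (1.56, higher in 13 of 14 types), *Pik3ip1*, an inhibitor of PI3 kinase (1.25, 7 of 7), and *Errfi1*, an inhibitor of the EGF receptor (1.01, 9 of 9). The 3 lowest were the corepressor *Tle3* (-0.35), the germinal centre repressor *Bcl6* (-0.33) and the chemokine receptor *Cxcr4* (-0.20). The median over the 18 was 0.29 and that over all genes -0.02. The list was chosen with earlier results of these data known, so these counts and medians are a description and no independent support.

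Of the genes of the receptor and the machinery around it with at least 5 ratios, most had a median below 0. Over all 6516 genes 46.3% had a median above 0, so a median below 0 was common and the counts here are a description. *Nr3c1*, the glucocorticoid receptor gene, had a median ratio of -0.02 over 20 types, 9 of them above and 11 below 0. The ratios ran from -0.97 in C1q macrophage-like to 1.10 in DC-like cells. Its level was 1.17 in WT and 0.980 in *Postn*-DTR B2 B-like cells, 1.85 and 1.83 in CD4 T-like cells, and 1.38 and 0.702 in C1q macrophage-like cells. Of the 8 genes of the receptor complex with at least 5 ratios 7 had a median below 0, the lowest being the cyclophilin *Ppid* (-0.52), the chaperone *Hsp90aa1* (-0.34) and its co-chaperone *Stip1* (-0.22), and the highest *Hspa8* (0.12). Among 7 coregulators 6 were below 0, with *Ncoa3* (-0.31), *Med1* (-0.29) and *Ncor1* (-0.22) lowest and *Ncoa1* (0.23) highest. *Hsd11b1*, whose enzyme regenerates active corticosterone inside cells, had a median of -0.49 over 11 types and was lower in 9. It was at 2.19 in WT and 1.56 in *Postn*-DTR NK-like cells.

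In the FKBP family *Fkbp5* was the one gene of 8 with a 2-fold median. The next was *Fkbp11*, of the secretory pathway, at 0.93 over 6 types, and the lowest were *Fkbp3* (-0.38), *Fkbp1a* (-0.31) and *Fkbp4* (-0.11), the last of which encodes FKBP52, another co-chaperone of the receptor.

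Genes that answer to other inputs of the members were read as well. Of 11 immediate early genes 8 had a median above 0, against 46.3% of all genes, and none reached 2-fold, against 0.829%. *Jund* (0.53), *Zfp36* (0.28) and *Fosb* (0.26) were highest and *Atf3* (-0.36), *Egr1* (-0.19) and *Fos* (-0.01) lowest. For the clock, *Cry1* was the one listed gene with at least 5 ratios (0.42). Of the integrated stress response, which drives *Ddit4*, *Ddit3* had 0.53 and *Atf4* 0.31. *Mlxip*, which encodes the glucose sensor MondoA that drives *Txnip*, had 0.59, and the arrestin-like *Arrdc3* -0.74. By list, the median was 0.29 for the induced genes, 0.16 for the immediate early genes and -0.08 for *Mlxip* and *Arrdc3* together. It was 0.42 for *Ddit3* and *Atf4* together and 0.42 for *Cry1* alone, and lists this short allow no comparison. The single genes *Mlxip*, *Ddit3*, *Jund*, *Cry1* and *Atf4*, picked from these lists, lay above *Per1*, *Txnip* and *Sgk1*. Which input moved the members was not tested.

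**Figure D5:**
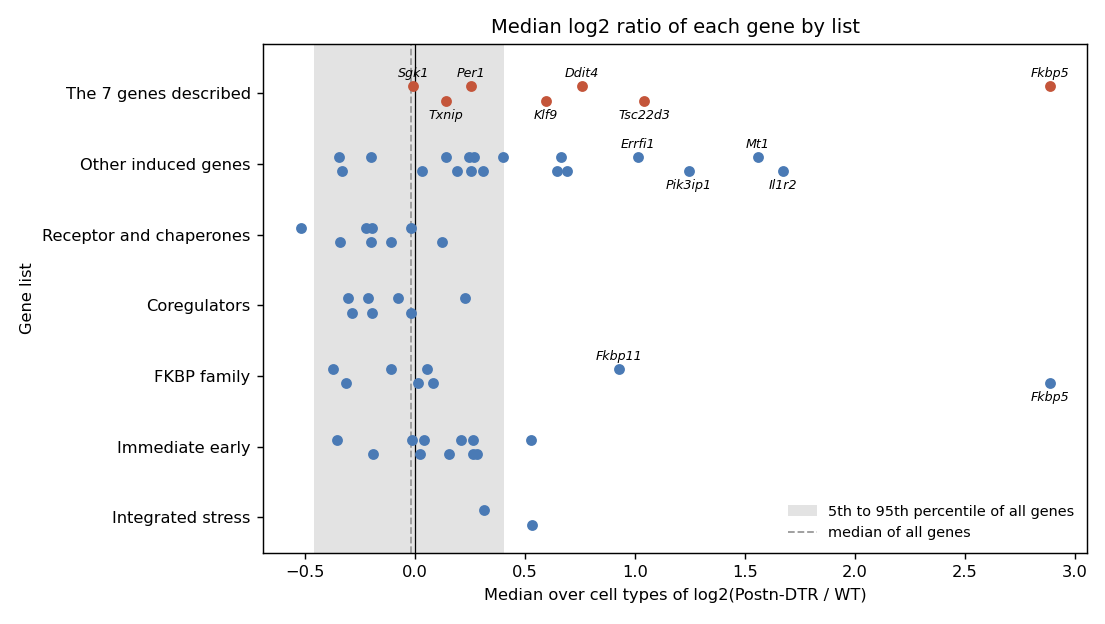
Median over cell types of the log2 ratio of *Postn*-DTR to WT (horizontal axis) for each gene with at least 5 ratios, by list (rows), with the 7 genes in red. The grey band spans the 5th to 95th percentile of all 6516 genes (-0.46 to 0.40). *Fkbp5* at 2.89, *Tsc22d3* at 1.04, *Ddit4* at 0.76 and *Klf9* at 0.59 lie outside it, whereas *Sgk1*, *Txnip* and *Per1* lie within.

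The genes whose levels were most like those of *Fkbp5*, by Pearson's r of log2 levels (0.1 UMIs per 10000 added) over 44 points, 22 cell types in 2 libraries, were *Stat3* (r = 0.65), *Rbm3* (0.63), *Bcl3* (0.61), *Sertad1* (0.57) and *Pcif1* (0.57). Of the other members, *Tsc22d3* had r = 0.47, *Klf9* 0.42, *Ddit4* 0.41, *Per1* 0.23, *Sgk1* 0.17 and *Txnip* 0.13. The points share 2 libraries and their depths, so r is a description. Both libraries enter r, and *Fkbp5* was chosen for its higher level in *Postn*-DTR. Genes most like it therefore tend to be higher there by this choice, and their counts support nothing further. *Stat3*, a transcription factor of cytokine signalling, was higher in *Postn*-DTR in 20 of 21 types (median 0.62). The same held for *Rbm3*, a cold-induced RNA-binding protein, in 22 of 22 (1.03), and *Bcl3*, an atypical IκB protein, in 15 of 16 (1.48). *Sertad1* was higher in 16 of 17 (0.44) and *Pcif1* in 12 of 18 (0.23).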

How the data were processed

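Single cells of the omentum were measured in 1 WT and 1 *Postn*-DTR library. The authors deposited natural log values, ln(1 + UMIs of a gene per 10000 UMIs of the cell), rounded to 3 decimals; they were back-transformed, and UMIs were recovered from each cell's smallest step (whole within 0.1 UMI for 99.97% of the WT and 99.91% of the *Postn*-DTR values). Counts came from Cell Ranger, whose version is 6.0.0 in the submitters' processing notes (build mm10), with an older one in the study's methods. The labels name a 5′ kit and the methods a 3′ kit, which decides which transcript end was counted. Since the values turned out to be logs, the mean over cells of the linear value is the level, and summed UMIs are an alternative.

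Cells with 200 to 7500 genes and at most 25% mitochondrial UMIs were kept. Each cell was named where the number of detected markers passed the limit for a single lineage. Cells that passed several (452 WT and 253 *Postn*-DTR) or none (329 and 314) got no name, and detection favours deep cells. Clusters (scanpy 1.11.5, Leiden at resolution 2) and Scrublet scores (doublets above 0.25, 1.56% of the WT and 1.8% of the *Postn*-DTR cells, a limit set after the automatic one had failed in WT) served alternatives only. Named genes of the lists are those with at least 100 UMIs in at least 5 types and a median among the 3 highest or lowest of their list, and the 5 genes most like *Fkbp5*. The members and lists were chosen with earlier results of these data known. No test was run, for want of replicates. The ratio code was tested on simulated data. Coordinates are those of GENCODE vM21, and 1060 blank symbols were filled by Ensembl identifier.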

Additional observations from a re-analysis of the deposited data

Results flagged for a closer look

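For 4 genes the libraries differed in opposite directions in different cell types, each beyond the counting interval. With 1 library per group the difference between the types was not tested. The log2 ratio of *Per1* was 1.15 in immature neutrophil-like and -0.68 in monocyte-like cells. That of *Ddit4* was 2.30 in plasma-like and -1.47 in granulocyte-monocyte precursor-like cells. *Sgk1* had 1.38 in stromal-like cells, which carried leukocyte RNA, and -1.70 in monocyte-like cells. *Txnip* had 1.15 in immature neutrophil-like and -1.47 in peritoneal macrophage-like cells.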

How the results depend on the processing

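*Fkbp5* was higher in *Postn*-DTR in every cell type with a ratio under each of the 12 alternatives, and its median lay between 2.06 and 3.41. The 2.06 came from adding 0.1 UMIs per 10000, which weighs on low levels. The median lay between 0.95 and 1.12 for *Tsc22d3*, 0.39 (without the richest cell) and 1.11 (summed UMIs) for *Ddit4*, 0.20 (summed UMIs) and 1.18 (minimum of 20 UMIs) for *Klf9*, 0.12 (summed UMIs) and 0.43 (thinned) for *Per1*, 0.075 (without cycling cells) and 0.38 (types from clusters) for *Txnip*, and -0.95 and 0.047 (centred) for *Sgk1*. Thinning to 1000 UMIs, with at least 20 thinned UMIs asked for, left fewer types: *Fkbp5* was higher in 8 of 8, *Tsc22d3* in 13 of 16, and *Sgk1* in 1 of 7, with a median of -0.95. A minimum of 20 UMIs gave *Klf9* higher in 17 of 19 types and *Sgk1* in 12 of 21. Without cycling cells, an alternative chosen after seeing the data like that of asking for 1 marker more, *Klf9* was higher in 3 of 4 types and *Sgk1* in 3 of 7. All other counts stayed within 1.5 times; summed UMIs gave *Per1* higher in 12 of 20 and *Sgk1* in 4 of 12.

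Of 107 single ratios 27 changed sign under at least 1 alternative. In 20 of them the counting interval covered 0, as for *Sgk1* in CD4 T-like (-0.59) and *Per1* in NK-like cells (-0.17) with summed UMIs. In the other 7 it did not. Thinning gave *Per1* -0.37 in mature neutrophil-like and 0.92 in plasma-like cells, and *Ddit4* -0.65 in NK-like cells. Without the richest cell *Ddit4* had -0.0855 in Treg-like cells, and summed UMIs gave *Klf9* -0.54 in stromal-like cells. *Sgk1* in C1q macrophage-like cells was 0.023 when receptor, mitochondrial and ribosomal genes were left out of the totals, 0.050 when centred on all genes, 0.051 with at least 500 genes per cell, and 0.17 in types from clusters, which gave cDC1-like cells 0.49. The cause was not tested.

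No paired analysis was possible because each group has 1 library. Differences between mice are not covered by any interval given. Depth limits the sparse genes most: *Klf9* had a ratio in 8 of 22 types, and in peritoneal macrophage-like and mature neutrophil-like cells the *Fkbp5* ratio rests on 1 and 2 WT UMIs.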

Other observations

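Cells that passed no marker limit, and so entered no comparison, held 16 *Fkbp5* UMIs in 329 WT cells and 102 in 314 *Postn*-DTR cells, a level of 0.127 against 0.972 UMIs per 10000. Their *Tsc22d3* level was 1.15 and 2.34, that of *Sgk1* 1.08 and 0.781, and that of *Txnip* 1.73 and 1.16. Cells that passed the limits of several lineages, with median depths of 13362 and 20191 UMIs, had *Fkbp5* levels of 0.195 and 0.577 and *Tsc22d3* levels of 1.83 and 1.91.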
